A study of Mus musculus with 8 samples.

Results

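Complement is a set of plasma proteins, cell-surface regulators and receptors, and 37 of its genes were followed in the livers of mice that lack FoxO1 in myeloid cells. The genes were chosen by symbol, as components, regulators and receptors of hepatocyte and myeloid origin, and all 37 were found among the 46517 genes of the count table. Bulk RNA was sequenced from whole liver of 4 WT and 4 MøFoxO1-KO littermates, all male C57BL/6 mice aged 31 weeks. Both groups had been fed a NASH diet, which induces nonalcoholic steatohepatitis, for 25 weeks from 6 weeks of age, and were fasted for 16 h before death. By the methods of the study, the KO mice carried FoxO1 loxP/loxP alleles together with a Cre driven by the Lyz2 promoter, which is active in macrophages, monocytes and neutrophils, and the WT littermates carried the FoxO1 loxP/loxP alleles without Cre. The deletion was therefore limited to myeloid cells, while most liver RNA comes from hepatocytes. Mice are named here by group and by the number on their label, WT 22 to 25 and KO 26 to 29.

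Complement is activated by the classical pathway through C1q bound to antibody, by the lectin pathway through mannose-binding lectins and ficolins bound to sugars, and by the alternative pathway through spontaneous turnover of C3. The pathways meet in the cleavage of C3 and then C5, and C5b assembles with C6, C7, C8 and C9 into the membrane attack complex, a pore in the target membrane. Hepatocytes make most of these proteins for the plasma, tissue macrophages make C1q and properdin, and inhibitors in plasma and on cell membranes protect host cells from the pore.

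Total counts lay between 15253218 and 18025481 per mouse, and 13278 genes passed the filter on low counts, with all 37 complement genes among them. Counts below are normalized for library size and composition by TMM, and 5 of the 37 genes fell below 10 raw counts in at least 1 mouse, so that counting error weighs most on those. Transcripts of albumin, the main hepatocyte product, were at 682746 normalized counts or more in every mouse. Foxo1 itself was at 303 to 459 normalized counts in the WT mice and 290 to 429 in the KO mice, overlapping ranges in whole liver, so its level in these libraries does not check the genotype labels. KO 27 and KO 29 stood apart in macrophage transcripts, as given with the C1q genes. KO 28 was the lowest KO mouse in 21 of the 37 complement genes, against 26.2% of all tested genes. The labels do not give the litter of each mouse. P values set the group difference against the spread within the groups, from which differences between litters cannot be separated.

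As a set, the complement genes leaned higher in MøFoxO1-KO liver, with 32 of 37 above and 5 below WT by log2 fold change, against 48.3% of all tested genes above. Scaled by total counts in place of TMM, 30 of 37 were above, when C1s1 and Masp2 turned, against 30.1% of all tested genes. The median log2 fold change was 0.55 over the 37 genes and -0.01 over all tested genes. It was 0.45 over 15 acute phase plasma protein genes and 0.39 over 7 hepatocyte markers, so the lean was not particular to complement. With edgeR and Benjamini-Hochberg adjustment over all tested genes, 3 complement genes passed an adjusted P of 0.05, all higher in KO liver (Susd4, C8b and C8a), against 0.121% of all tested genes in that direction. Susd4 and C8b also passed a log2 fold change of 1.5, as did 0.0527% of all tested genes in that direction. DESeq2 called 12 of the 37 at the same adjusted P, 11 higher (2.58% of all tested genes) and 1 lower (1.84% of all tested genes). At an unadjusted P of 0.05, edgeR placed 18 complement genes higher (8.65% of all tested genes) and 1 lower (8.06% of all tested genes). In TMM-normalized counts, every KO mouse was above every WT mouse in 10 complement genes, which held for 5.0% of all tested genes. In none was every KO mouse below (4.71% of all tested genes). Of the 10, C2 overlapped between the groups when scaled by total counts. The share of each library's counts taken by the 37 genes was 1.53% ± 0.147 in WT and 1.77% ± 0.180 in KO mice (SD, n = 4), with an exact two-sided permutation P of 0.0571, where 4 against 4 mice cannot go below 0.0286.

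**Figure D1:**
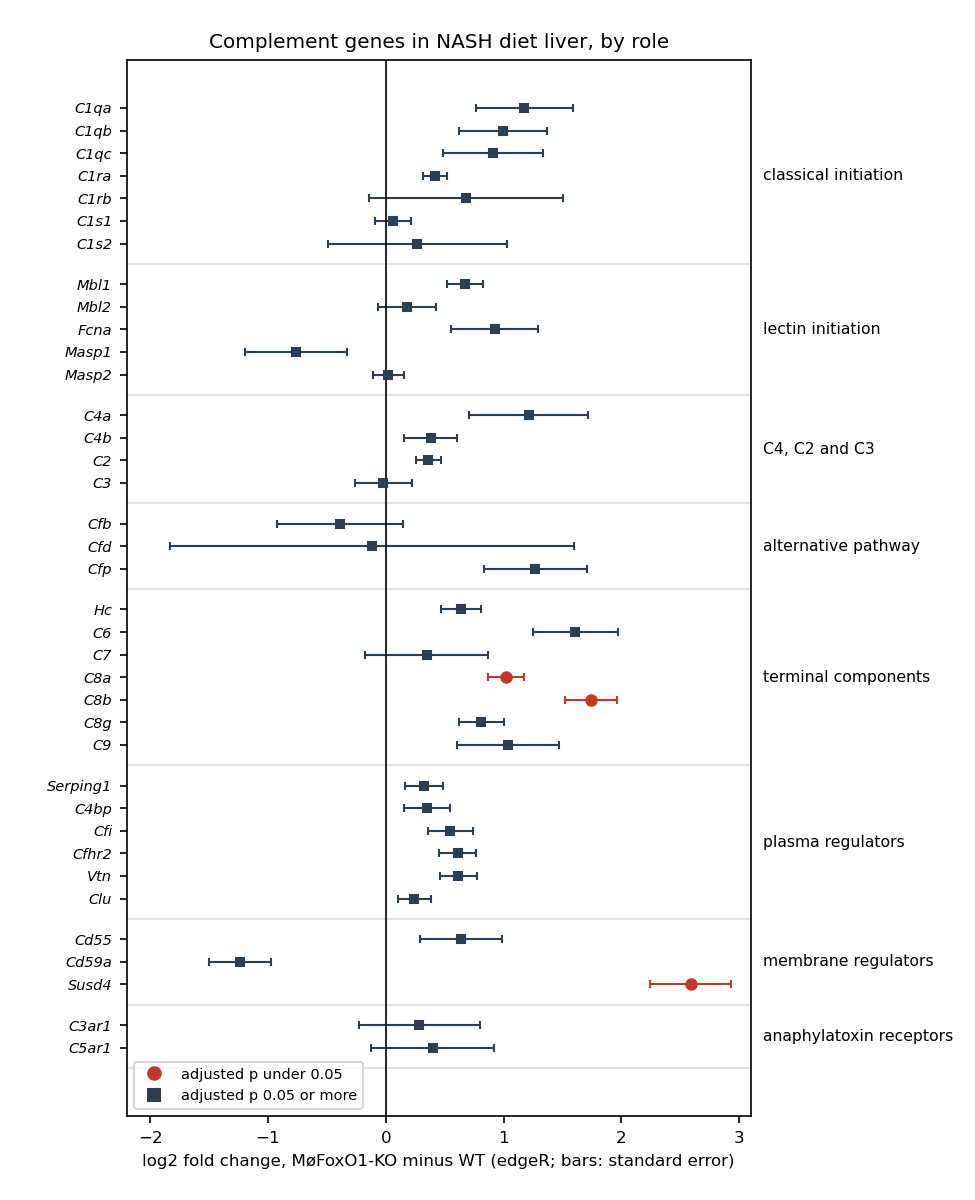
Log2 fold change of each of the 37 complement genes, MøFoxO1-KO minus WT liver, by role, with standard errors from edgeR (4 mice per group); circles mark adjusted P under 0.05 and squares the rest. The 7 terminal components all lie to the right of 0, Susd4 lies farthest right at 2.59 and Cd59a farthest left at -1.24.

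By length-normalized level, in FPKM computed from the counts and the exon length in the table, the 37 genes spanned from 0.446 for C7 to 1319 for Vtn as means over the 8 mice. In all, 18 genes averaged over 50 FPKM and 4 averaged under 1. Vitronectin, C3 and clusterin led, with Vtn at 1113 ± 126 and 1524 ± 197 FPKM, C3 at 909.7 ± 247 and 808 ± 167 FPKM and Clu at 523 ± 40.0 and 556 ± 32.2 FPKM in WT and KO mice. Neighbours in that order overlapped in places: C3 and Vtn overlapped in WT mice, where WT 23 had more C3 than Vtn. The lowest genes were C7, the factor B gene Cfb and the anaphylatoxin receptors C3ar1 and C5ar1. Mouse-to-mouse spread differed widely between the genes. The coefficient of variation within the KO group ran from 3.26% for C1ra to 199% for Cfd, with medians over the genes of 29.1% in WT and 30.0% in KO mice.

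Of the 8 roles, the terminal pathway had the highest median log2 fold change, 1.02. All 7 terminal genes were higher in KO liver (48.3% of all tested genes), and 6 were at an unadjusted P under 0.05 (8.65% in that direction). In 4 every KO mouse was above every WT mouse (5.0% of all tested genes). C8 is the component that begins to insert into the membrane, and it is built from the C8 alpha, beta and gamma chains, each with a gene of its own. C8a (ENSMUSG00000035031, chr4:104815679-104876398, minus strand) and C8b (ENSMUSG00000029656, chr4:104766317-104804548, plus strand) lie 11130 bases apart and point at each other in GRCm38, with their start sites at the outer ends. The 250 bases that precede each RefSeq start site are shown because both genes passed the test. They lie outside the exons of these genes. Capitals mark the only match to TTCNNNGAA, a STAT-type motif, searched on both strands. Other spacings between TTC and GAA were not searched or marked.
C8a, chr4:104876399-104876648, minus strand: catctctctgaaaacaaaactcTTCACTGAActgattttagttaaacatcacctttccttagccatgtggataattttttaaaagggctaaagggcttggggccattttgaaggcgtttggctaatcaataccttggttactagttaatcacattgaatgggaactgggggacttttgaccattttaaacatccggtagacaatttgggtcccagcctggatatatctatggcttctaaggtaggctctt
C8b, chr4:104766067-104766316, plus strand: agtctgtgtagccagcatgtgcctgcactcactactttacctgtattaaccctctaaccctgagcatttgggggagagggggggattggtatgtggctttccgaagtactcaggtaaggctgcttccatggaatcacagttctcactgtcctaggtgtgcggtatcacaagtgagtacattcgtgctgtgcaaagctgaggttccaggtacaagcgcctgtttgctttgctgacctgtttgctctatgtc
The C8a window was 40.0% G or C and the C8b window 50.4%.

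C8b stood at 641, 949.9, 1304 and 841 normalized counts in the WT mice 22 to 25 and 3397, 3636, 2393 and 3096 in the KO mice 26 to 29. Every KO mouse was above every WT mouse, with the highest WT value in WT 24 and the lowest KO value in KO 28. The difference was a log2 fold change of 1.74 ± 0.220 (SE), a 3.35-fold higher level, with an edgeR adjusted P of 0.0171. C8a was the more abundant of the pair, at 4256, 5577, 4833 and 3934 normalized counts in the WT mice 22 to 25 and 10089, 10563, 7949 and 9157 in the KO mice 26 to 29. Again no KO mouse reached down to the WT range. The log2 fold change of C8a was 1.02 ± 0.151 (SE), a 2.03-fold higher level, with an edgeR adjusted P of 0.0337. The C8a difference ranged from 0.95 to 1.12 in log2 when each mouse was left out in turn, and its adjusted P stayed under 0.05 in 2 of those 8 fits (without WT 23 and without KO 28) and reached 0.129 without KO 27. For C8b the same range was 1.6 to 1.95, and 5 of 8 fits stayed under 0.05. The exceptions were 0.0542 without WT 25, 0.0562 without KO 26 and 0.0798 without KO 27.

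Within each mouse, C8b transcripts were 0.215 to 0.386 of C8a transcripts per length in WT liver and 0.430 to 0.492 in KO liver, so the C8b to C8a ratio did not overlap between the groups either. That ratio was computed after the levels of both genes were seen and was not tested. C8g, which encodes the gamma chain that joins C8 alpha, was at 8079, 6588, 5043 and 7688 normalized counts in the WT mice 22 to 25 and 10444, 15359, 9923 and 12413 in the KO mice 26 to 29. Its KO values lay above all WT values, with a log2 fold change of 0.81 ± 0.192 (SE) and an edgeR adjusted P of 0.113. DESeq2 gave an adjusted P of 0.00343 for C8g.

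Upstream of C8 in the pore, Hc encodes C5, whose cleavage releases C5a and starts assembly. Hc stood at 7672, 9784, 6486 and 6232 normalized counts in the WT mice 22 to 25 and 10797, 13669, 10889 and 11614 in the KO mice 26 to 29. The groups did not overlap, and WT 23 was the WT mouse nearest to the KO range. The log2 fold change of Hc was 0.64 ± 0.168 (SE), with adjusted P values of 0.131 by edgeR and 0.0109 by DESeq2. C6, which binds C5b, was at 675, 794, 1647 and 823 normalized counts in the WT mice 22 to 25 and 3852, 4218, 1547 and 2417 in the KO mice 26 to 29. WT 24 was the highest WT mouse and was above KO 28, so the groups overlapped there. C6 had a log2 fold change of 1.61 ± 0.360 (SE), with adjusted P values of 0.102 by edgeR and 3.98e-04 by DESeq2. Without KO 28 its edgeR adjusted P was 0.0385 and its log2 fold change 1.84. Without KO 27 they were 0.310 and 1.41. Of the 8 fits of C6 with 1 mouse left out, only that without KO 28 passed the limit on adjusted P.

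C9, which polymerizes to form the wall of the pore, was at 2257, 5036, 1533 and 1812 normalized counts in the WT mice 22 to 25 and 7865, 6921, 2398 and 4638 in the KO mice 26 to 29. WT 23 was above KO 28 and KO 29, and the other WT mice were below every KO mouse. C9 had a log2 fold change of 1.04 ± 0.432 (SE) at an unadjusted edgeR P of 0.0372 and an adjusted P of 0.267. C7, the remaining link of the complex, was low throughout, at 8.85 to 25.8 normalized counts in WT and 5.60 to 33.2 in KO mice, and its log2 fold change was 0.35 ± 0.521 (SE). The edgeR adjusted P of C7 was 0.780, and the power to detect a difference of this size at that depth was not tested.

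**Figure D2:**
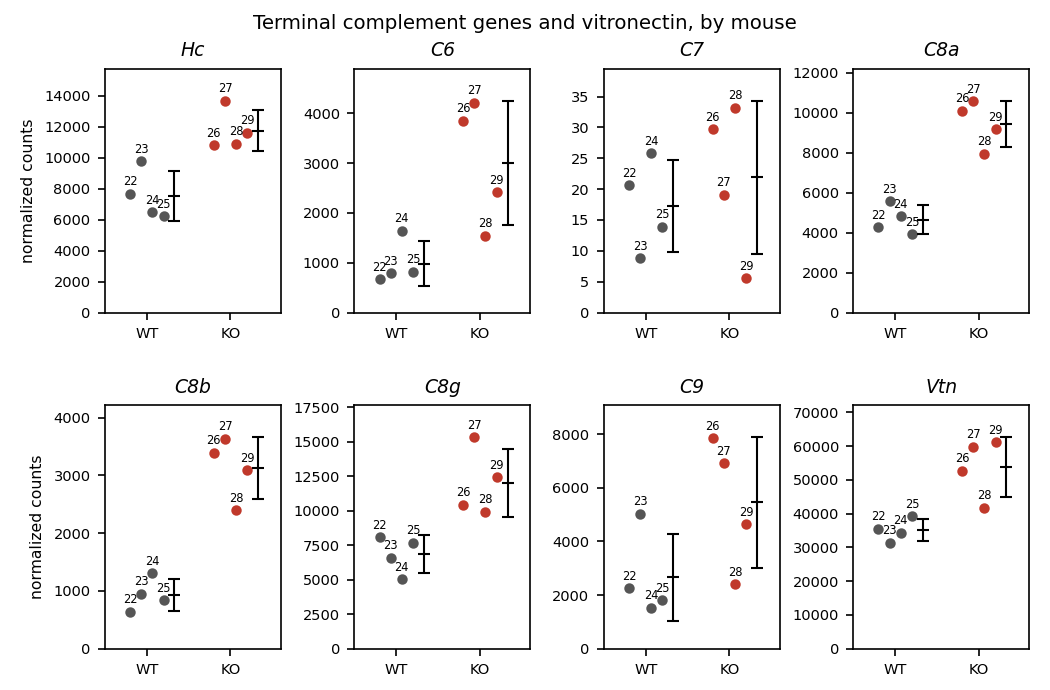
Normalized counts of the 7 terminal complement genes and of Vtn in each mouse (points, numbered by mouse label), with the mean and SD of the 4 mice per group to the right; each panel has its own linear axis from 0. The WT and KO points of Hc, C8a, C8b, C8g and Vtn do not overlap, while WT 24 is above KO 28 in C6 and WT 23 is above KO 28 and KO 29 in C9.

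Other liver transcripts differed between the same groups. Of 13 genes on a list of male-biased liver genes, 12 were tested, and those 12 were higher in KO liver, against 48.3% of all tested genes. Among them, 5 passed an edgeR adjusted P of 0.05, against 0.121% of all tested genes in that direction. The list was chosen with earlier results of these data known. It holds Mup genes that the study reports as higher in these livers, so its counts are no independent support. The summed level of the male-biased list was 39110 to 49258 normalized counts in WT and 63658 to 100339 in KO mice, all of which are male by their labels. On a list of female-biased liver genes chosen in the same way, 7 of 7 tested genes were lower in KO liver, against 6861 of all 13278 tested genes. The female-biased list summed to 3905 to 12886 normalized counts in WT and 1529 to 3456 in KO mice. The length-normalized levels of 7 hepatocyte markers summed to 37624 to 41835 FPKM in WT and 40116 to 54560 FPKM in KO mice, which overlap. By log2 fold change 6 of the 7 were higher and 1 lower in KO liver, against 48.3% of all tested genes higher. At an unadjusted edgeR P of 0.05, 3 were higher (8.65% of all tested genes) and 0 lower (8.06% of all tested genes). Of 15 acute phase plasma protein genes, 12 were higher and 3 lower in KO liver, against 48.3% of all tested genes higher. At an unadjusted edgeR P of 0.05, 7 of the 15 were higher (8.65% of all tested genes) and 1 lower (8.06% of all tested genes). The acute phase sums overlapped between the groups, at 253994 to 336326 in WT and 277328 to 481236 in KO mice. The part of these differences in the terminal complement values was not tested.

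Inhibitors on cell membranes lay on both sides of WT. SUSD4 is a membrane protein with complement control domains that regulates the C3 convertases. Susd4 (ENSMUSG00000038576) was at 118, 69.8, 114 and 136 normalized counts in the WT mice 22 to 25 and 1032, 787, 353 and 471 in the KO mice 26 to 29. The lowest KO mouse, KO 28, was above the highest WT mouse, WT 25. In length-normalized level Susd4 was at 1.84 FPKM in WT and 9.81 FPKM in KO liver, among the lower members even where it was higher. The edgeR adjusted P of 0.0171 was kept under 0.05 in 5 of 8 fits with 1 mouse left out, and was 0.0570 without WT 22, 0.0542 without WT 25 and 0.0798 without KO 27.

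Cd59a (ENSMUSG00000032679) encodes the widely expressed form of CD59, the membrane inhibitor that binds C8 and C9 and blocks the pore. Its values were 2211, 1751, 1024 and 1828 normalized counts in the WT mice 22 to 25 and 607, 639, 1072 and 568 in the KO mice 26 to 29. KO 28 was just above WT 24, the lowest WT mouse, and the other KO mice were below all WT mice. The log2 fold change of Cd59a was -1.24 ± 0.263 (SE), the lowest of the 37 genes, with adjusted P values of 0.0968 by edgeR and 7.22e-04 by DESeq2. Without KO 28 the edgeR adjusted P was 0.0309 and the log2 fold change -1.48. Without KO 27 they were 0.309 and -1.18. Of the 8 fits of Cd59a with 1 mouse left out, only that without KO 28 passed the limit on adjusted P. Cd55, or decay-accelerating factor, which breaks up the C3 convertases, was at 46.2 to 162 normalized counts in WT and 144 to 265 in KO mice, and it had a log2 fold change of 0.64 ± 0.348 (SE), or 0.37 without WT 23, and an edgeR adjusted P of 0.393.

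The inhibitors secreted into plasma were all higher in KO liver by smaller amounts, 6 of 6 (48.3% of all tested genes), with log2 fold changes from 0.24 to 0.62. Vitronectin, which binds the nascent pore in plasma and keeps it from membranes, had the highest level of all 37 genes. Vtn was at 35546, 31368, 34334 and 39280.3 normalized counts in the WT mice 22 to 25 and 52743, 59824, 41754 and 61154 in the KO mice 26 to 29. The groups did not overlap, with KO 28 nearest to the WT mice. Its log2 fold change was 0.62 ± 0.158 (SE), with adjusted P values of 0.128 by edgeR and 0.00384 by DESeq2. Cfhr2, a factor H-related gene, stood at 4835, 5609.7, 6364 and 7019 normalized counts in the WT mice 22 to 25 and 8278, 10940, 9293 and 7864 in the KO mice 26 to 29. All KO mice were above all WT mice here too, and the log2 fold change was 0.61 ± 0.159 (SE), with adjusted P values of 0.131 by edgeR and 0.00751 by DESeq2. Cfhr2 belongs to a family of similar genes, between which counting could have split reads.

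Cfi encodes factor I, the protease that inactivates C3b and C4b. Cfi was at 6222, 9257, 6655 and 7661 normalized counts in the WT mice 22 to 25 and 10652, 12398, 7622 and 12925 in the KO mice 26 to 29. WT 23 and WT 25 were above KO 28, and the log2 fold change was 0.55 ± 0.193 (SE) at an unadjusted edgeR P of 0.0173 and an adjusted P of 0.212. Clusterin, another fluid-phase inhibitor of the pore, was at 31077, 30070.2, 23922 and 27372 normalized counts in the WT mice 22 to 25 and 34166, 35922, 28531 and 34306 in the KO mice 26 to 29. KO 28 fell within the WT range of Clu, and the log2 fold change was 0.24 ± 0.140 (SE) with an edgeR adjusted P of 0.421. The last members of the group were Serping1, the C1 inhibitor, and C4bp, the C4b-binding protein, with log2 fold changes of 0.32 ± 0.161 and 0.35 ± 0.198 (SE) and edgeR adjusted P values of 0.347 and 0.410.

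**Figure D3:**
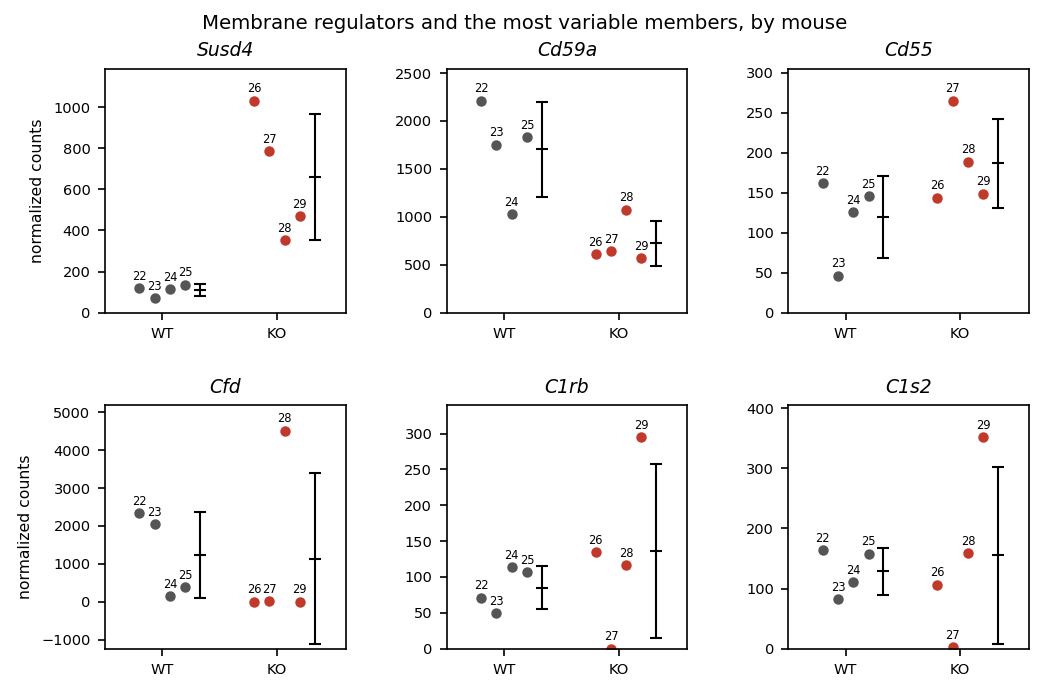
Normalized counts of 3 membrane regulators (Susd4, Cd59a and Cd55) and of the 3 genes with the widest spread among KO mice (Cfd, C1rb and C1s2) in each mouse, with the mean and SD of 4 mice per group to the right; axes are linear and differ by panel, and SD bars can pass below 0. Susd4 groups are apart, Cfd in KO mice rests on KO 28 alone at 4514 normalized counts, and KO 27 lies at or near 0 in both C1rb and C1s2.

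C1q, the recognition protein of the classical pathway, is encoded by C1qa, C1qb and C1qc, and its transcripts in liver come mainly from macrophages. C1qa was at 811, 499.5, 1019 and 786 normalized counts in the WT mice 22 to 25 and 957, 1987, 817 and 3290.1 in the KO mice 26 to 29. Only KO 27 and KO 29 lay above the WT range, while KO 28 and KO 26 fell within it. C1qb followed the same order of mice in the KO group, at 637, 429, 699 and 602 normalized counts in the WT mice 22 to 25 and 752, 1291, 533 and 2149 in the KO mice 26 to 29. C1qc ran from 381 to 868 normalized counts in WT and from 537 to 2356 in KO mice. The log2 fold changes were 1.18 ± 0.412, 1.00 ± 0.373 and 0.91 ± 0.425 (SE) for C1qa, C1qb and C1qc, with edgeR adjusted P values of 0.212, 0.231 and 0.321. Without KO 29 alone they were 0.68, 0.53 and 0.39, and without KO 27 and KO 29 they were 0.19, 0.12 and -0.06. In bulk liver, more cells of a type and more RNA per cell cannot be told apart.

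Cfp encodes properdin, the myeloid-derived stabilizer of the alternative C3 convertase. Cfp was at 314, 214, 431 and 416 normalized counts in the WT mice 22 to 25 and 543, 1132, 278 and 1369 in the KO mice 26 to 29. As with C1q, KO 27 and KO 29 were the high mice and KO 28 was within the WT range. Its log2 fold change was 1.27 ± 0.436 (SE), with adjusted P values of 0.205 by edgeR and 0.0468 by DESeq2, and the log2 fold change was 0.26 without KO 27 and KO 29. The anaphylatoxin receptors C3ar1 and C5ar1, which sense C3a and C5a on myeloid cells, were low, at 15.9 to 81.2 normalized counts in WT and 18.03 to 101 in KO mice. Their log2 fold changes were 0.28 ± 0.516 and 0.40 ± 0.522 (SE), and both were below 0 without KO 29.

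Markers of Kupffer cells and of macrophages in general were high in the same mice, while those of lipid-associated macrophages and monocytes were not. Of 12 markers on the first list, 11 were higher and 1 lower in KO liver, against 48.3% of all tested genes higher, and none was at 0 in all mice. Their summed level was 4005 to 6433 normalized counts in WT and 4573 to 17073 in KO mice. KO 27 at 11569 and KO 29 at 17073 were far above the WT range, KO 26 at 6739 was just above it and KO 28 was within it. Lyz2, whose promoter drives the Cre, was the marker that was lower. Of 9 markers on the second list, 3 were higher (48.3% of all tested genes) and 6 lower. The smallest edgeR adjusted P among the 9 was 0.0382, for a gene that was lower. Sums of the second list overlapped at 1714 to 3125 in WT and 1495 to 2868 in KO mice, with KO 27 at 2176 and KO 29 at 2868 within the WT range. The log2 ratio of summed C1q to the summed first list, per length, was -0.52 ± 0.0762 in WT and -0.34 ± 0.143 in KO mice (SD, n = 4), with an exact two-sided permutation P of 0.114 and 0.2 after adjustment over 3 such ratios. KO 28 had the highest ratio although its C1q level was low. The first list includes Lyz2, which had a log2 fold change of -0.77 ± 0.638 (SE) and was lowest in KO 27 and KO 28. A low Lyz2 level raises this ratio, and the part of Lyz2 in the difference was not tested. The full list without Lyz2 was not tested. The difference of 0.18 in log2 did not pass the test. Against 4 of the markers alone (Adgre1, Csf1r, Cd68 and Clec4f), which leave out Lyz2 and others, it was 0.36, with an exact two-sided permutation P of 0.0571.

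**Figure D4:**
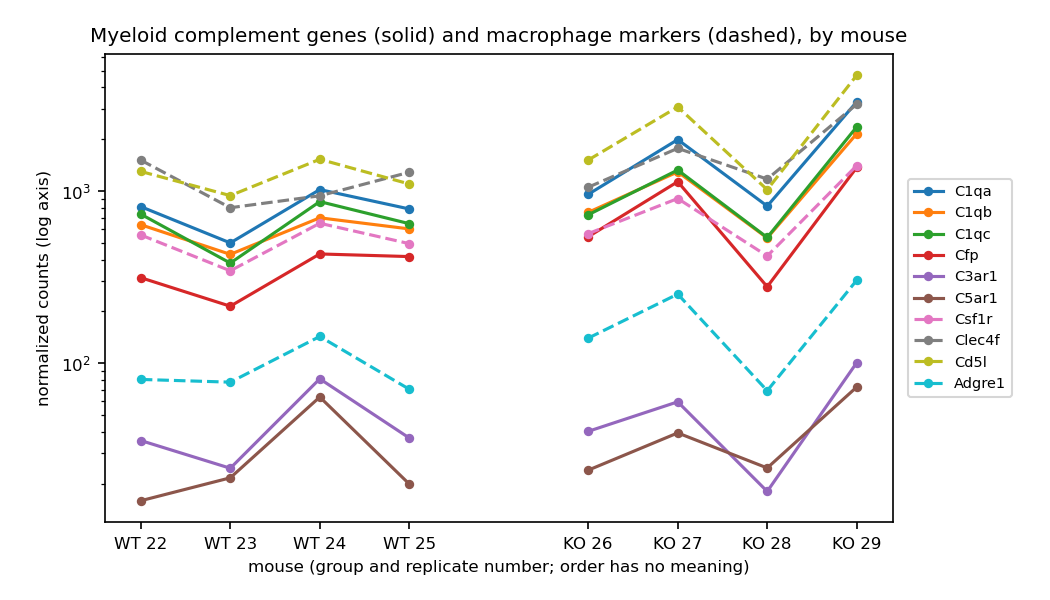
Normalized counts (log axis) of 6 complement genes of myeloid cells (solid lines) and 4 macrophage markers (dashed lines) in each mouse; lines join the mice of a group only to show which values belong to 1 gene. C1qa, C1qb, C1qc and Cfp are highest in KO 29 and next in KO 27, as are Csf1r, Clec4f, Cd5l and Adgre1, and KO 28 lies within the WT range of C1qa.

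The C1 proteases C1r and C1s, which C1q activates, have a pair of genes each in the mouse, all on chromosome 6. C1ra was the most uniform of the complement genes, at 3360.1, 3268, 3219 and 3085 normalized counts in the WT mice 22 to 25 and 4319, 4481, 4137 and 4311 in the KO mice 26 to 29. The groups were apart although the difference was small, a log2 fold change of 0.42 ± 0.101 (SE) or 1.33-fold, with adjusted P values of 0.120 by edgeR and 8.76e-05 by DESeq2. Its partner C1s1, 6901 bases away, was at 5408, 6052, 4314 and 4582 normalized counts in the WT mice 22 to 25 and 5095, 5824, 5905 and 4425 in the KO mice 26 to 29. C1s1 groups overlapped fully, with a log2 fold change of 0.06 ± 0.151 (SE).

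The paralogs C1rb and C1s2 had far fewer counts and a wider relative spread among KO mice than any other of the 37 genes except Cfd. C1rb was at 71.2, 49.2, 114 and 107 normalized counts in the WT mice 22 to 25 and 134, 0, 117 and 296 in the KO mice 26 to 29. KO 27 had 0 counts of C1rb, which allows up to 3 counts or 3.58 normalized counts, while KO 29 was the highest mouse. C1s2 was at 164, 82.6, 111 and 158 normalized counts in the WT mice 22 to 25 and 106, 2.39, 159 and 353 in the KO mice 26 to 29. KO 27 was again the lowest mouse by a wide margin, with 2 raw counts, and KO 29 the highest. The genes lie 43453 bases apart, while C1ra and C1s1 in KO 27 were at 4481 and 5824 normalized counts, close to the other KO mice. The log2 fold changes of C1rb and C1s2 were 0.68 ± 0.825 and 0.27 ± 0.763 (SE), and both turned negative with limma-voom and without KO 29. Of the 100-base windows of the longest transcript, 34.5% of C1ra and 42.7% of C1rb were shared between those genes, and 7.90% of C1s1 and 8.78% of C1s2, so reads from these stretches could not be told apart by sequence.

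In the lectin pathway, Mbl1 and Mbl2 encode the mannose-binding lectins A and C. Mbl1 was at 2984, 2407, 2626 and 3097 normalized counts in the WT mice 22 to 25 and 3999, 5082, 3579 and 5043 in the KO mice 26 to 29. No WT mouse reached the KO range, and Mbl1 had a log2 fold change of 0.67 ± 0.152 (SE) and adjusted P values of 0.102 by edgeR and 0.00248 by DESeq2. Mbl2 was at 6748, 4363, 7318 and 5159 normalized counts in the WT mice 22 to 25 and 5462, 4450, 9229 and 7641 in the KO mice 26 to 29. Here the groups overlapped, KO 27 was the lowest KO mouse and the log2 fold change was 0.18 ± 0.246 (SE). The log2 ratio of Mbl1 to Mbl2 within a mouse was -0.81 ± 0.334 in WT and -0.30 ± 0.640 in KO liver (SD, n = 4), with an exact two-sided permutation P of 0.2 before and after adjustment over 3 ratios. That difference of 0.51 was 0.26 without KO 27 and 0.78 without KO 28. The transcripts shared none of their 100-base windows.

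Fcna, or ficolin A, a lectin of liver macrophages, was at 429, 171, 419.9 and 788 normalized counts in the WT mice 22 to 25 and 738, 1003, 648 and 1048 in the KO mice 26 to 29. WT 25 was above KO 26 and KO 28, and the log2 fold change was 0.93 ± 0.367 (SE) at an unadjusted edgeR P of 0.0302 and an adjusted P of 0.250. The proteases that the lectins carry did not pass the test: Masp1 had a log2 fold change of -0.76 ± 0.432 and Masp2 of 0.02 ± 0.134 (SE), with edgeR adjusted P values of 0.410 and 0.952. WT 23 held the highest Masp1 value, at 782 normalized counts against 216 to 343 in the other WT mice, and without WT 23 the Masp1 log2 fold change was -0.20.

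C4 and C2 form the C3 convertase of the classical and lectin pathways. C4b, the main C4 gene of mouse liver, was at 17961, 27398, 12614 and 17255 normalized counts in the WT mice 22 to 25 and 24143, 24623, 20388 and 28807 in the KO mice 26 to 29. Its close copy C4a, the gene of the sex-limited protein, was at 683, 655, 99.7 and 361 normalized counts in the WT mice 22 to 25 and 1147, 832, 1611 and 582 in the KO mice 26 to 29. WT 24 was the lowest mouse for both, and neither gene separated the groups. The log2 fold changes were 1.22 ± 0.506 for C4a and 0.38 ± 0.224 for C4b (SE), with unadjusted edgeR P values of 0.0369 and 0.119. C4a counts were 0.790 to 3.80% of C4b counts in WT and 2.02 to 7.90% in KO mice, and the log2 ratio differed by 1.02 with an exact two-sided permutation P of 0.2, or by 0.58 without WT 24. The C4b log2 fold change was 0.62 without WT 23 and 0.23 without WT 24. The copies shared 16.5% of their 100-base windows, so their split is uncertain.

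C2 was at 457, 476, 497 and 534 normalized counts in the WT mice 22 to 25 and 552, 668, 674 and 630.3 in the KO mice 26 to 29. All KO mice were above all WT mice, by a log2 fold change of 0.36 ± 0.107 (SE), with an unadjusted edgeR P of 0.00681 and an adjusted P of 0.161. This separation of C2 rests on the TMM scaling. In FPKM, which scales by total counts, KO 26 at 8.25 was below WT 24 at 9.03. With total counts in place of TMM the log2 fold change was 0.21, with an edgeR adjusted P of 0.338. C3, on which the pathways converge, was at 56809, 107596, 64563 and 64602 normalized counts in the WT mice 22 to 25 and 72322, 74668, 50902 and 91606 in the KO mice 26 to 29. WT 23 was the highest mouse of all, and the groups overlapped. C3 had a log2 fold change of -0.02 ± 0.242 (SE), or 0.22 without WT 23.

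The alternative pathway genes apart from Cfp had few counts or wide spread. Cfb, which supplies the protease of the alternative C3 convertase, was at 8.96 to 46.2 normalized counts in WT and 8.36 to 30.4 in KO mice, and its log2 fold change was -0.39 ± 0.534 (SE). Cfd encodes factor D or adipsin, which cleaves factor B and is best known as a product of adipocytes. Cfd was at 2347, 2049, 140.3 and 383 normalized counts in the WT mice 22 to 25 and 1.92, 11.9, 4514 and 0 in the KO mice 26 to 29, and it is given in full because of that spread, after its values were seen. KO 28 was the highest mouse of all and the other KO mice were lower than every WT mouse, KO 29 with 0 counts, which allows up to 3.36 normalized counts. The log2 fold change over all mice was -0.12 ± 1.72 (SE). Without KO 28 it was -8.08, a value that depends on the prior count of the fit, with an edgeR adjusted P of 0.0379. Of 6 adipocyte markers, 4 (Adipoq, Lep, Plin1 and Retn) had at most 3 counts in every mouse, KO 28 included. The summed level of the 6 therefore rests on Plin4 and Cidec. It was 3068 to 3773 normalized counts in WT and 206 to 1854 in KO mice, with KO 28 the highest KO mouse. The study describes Cidec as a lipid droplet protein induced in steatotic liver, so the sum cannot be read as adipocyte content. Its part in the Cfd values was not tested.

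Further complement genes outside the 37 were counted from a list of 29, of which 28 were in the table and 24 were tested. They hold factor H, collectins, complement receptors and carboxypeptidases that inactivate anaphylatoxins. Of the 24, 18 were higher (48.3% of all tested genes) and 6 lower in KO liver, with a median log2 fold change of 0.18. With edgeR 0 passed an adjusted P of 0.05. At an unadjusted P of 0.05, 6 were higher (8.65% of all tested genes) and 2 lower (8.06% of all tested genes). DESeq2 called 1, which was higher (2.58% of all tested genes).

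RefSeq (GRCm38.p6) start-site windows of 250 bases before and 50 bases after the start were held for 28 of the 37 genes. The missing entries were C1qa, Masp1, C4a, C4b, C2, Cfb, Serping1, Cfi and Clu. Searched on both strands, the FoxO-type motif GTAAACA was in 0 of these 28 windows and in 3.65% of 32851 windows of all genes. The STAT-type motif TTCNNNGAA was in 7 of 28 windows, 25%, against 8.30% of all windows. Those were the windows of C1ra, C1rb, C7, C8a, Cfhr2, Masp2 and Vtn, and the C8a match is the one in capitals above, at position -228 from the start site. The C/EBP-type motif TTGCGCAA was in 0 of 28 and in 0.183% of all windows. The paralogs C1ra and C1rb held the same STAT-type letters, so their windows may not count as separate. These are matches of letters in short windows and were not tested as binding, and the shares were not tested against those of all windows.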

How the data were processed

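Liver RNA of 8 mice was sequenced after poly-T selection with the NEBNext Ultra RNA kit. The authors deposited 1 table of raw read counts per Ensembl gene with the summed exon length. The submitters' processing notes name STAR, featureCounts and the build mm10. Versions, whether counting used strand and how multi-mapping reads were handled are not given in the sources used here, so reads of antisense or overlapping genes could not be told apart. Symbols came from GENCODE M21 (GRCm38).

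Genes were filtered with filterByExpr (minimum count 10, minimum total 15), scaled by TMM and fitted over all 13278 genes with the quasi-likelihood test of edgeR 4.0.16 in R 4.3.3, 4 KO against 4 WT mice, with no covariate and Benjamini-Hochberg adjustment. The common biological coefficient of variation was 0.256. The limits were the adjusted P of 0.05 and absolute log2 fold change of 1.5 that the study states. FPKM was computed from total counts and exon length. For single values per mouse, two-sided exact permutation tests were run with scipy 1.17.1. Alternatives were DESeq2 1.42.0, limma-voom (limma 3.58.1), other scalings and filters, a shorter macrophage marker list for the C1q ratio, and leaving out mice. Total-count scaling and leaving out KO 27 and KO 29 together were added after the data were seen. As a check that the fit ran correctly, edgeR recovered 187 of 200 changed genes among 13278 in simulated counts, with 0 false calls. The power to detect differences of the size and spread seen in the complement genes was not tested.

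The members and all gene lists were chosen with earlier results of these data known. Members with an unadjusted P under 0.05 or groups that did not overlap, the 3 highest by FPKM and paralog pairs were given in every mouse, and other members by range. Macrophage markers shown by name were chosen from their list after their values were seen. Protein identity of paralogs was planned but protein sequences were not used here, and shared 100-base windows of GENCODE M21 transcripts were counted in their place. Total counts per mouse set the precision for genes with few counts, and limits given for counts of 0 cover counting error only.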

Additional observations from a re-analysis of the deposited data

Results flagged for a closer look

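In 8 of 82 groups of 4 mice tested, 1 mouse lay apart from the other three by Dixon's criterion, which chance alone gives in about 1 group in 20. Among WT mice, WT 24 had a C6 level of 1647 normalized counts against 675 to 823 in the others, a Serping1 level of 9923 against 12524 to 12897, and a C5ar1 level of 63.7 against 15.9 to 21.6. WT 23 had a C3 level of 107596 normalized counts against 56809 to 64602. The complement genes took 1.75% of all counts in WT 23 against 1.44 to 1.48% in the others, and its log2 ratio of C1q to macrophage markers was -0.64 against -0.50 to -0.48. Among KO mice, KO 28 had a Cd59a level of 1072 normalized counts against 568 to 639, and a Cfd level of 4514 against 0 to 11.9.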

How the results depend on the processing

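No paired analysis was possible because the litter of each mouse is not given. The number of complement genes past both limits was 2, was 0 without KO 27 and KO 29 together, and ranged from 0 (without WT 25 or KO 27) through 1 (without WT 22 or KO 26) to 4 (without KO 28: C6, C8b, Cfd and Susd4) with 1 mouse left out. At an adjusted P of 0.05 alone the count was 3, was 12 with DESeq2, 5 with no filter on low counts and 0 without KO 27 and KO 29, and ranged from 0 to 6 with 1 mouse left out. At an unadjusted P of 0.05 it fell from 19 to 11 without KO 27 and KO 29, which leaves 2 KO mice. Of the further complement genes, 0 passed with edgeR, 1 with DESeq2 (Calr) and 1 without KO 28 (C1rl), both named after their values were seen. The median log2 fold change of 0.55 became 0.43 with limma-voom, 0.39 with total counts in place of TMM, where the median of all genes moved to -0.17, and 0.32 without KO 27 and KO 29, and ranged from 0.41 to 0.61 with 1 mouse left out. The log2 fold changes of 27 complement genes kept their sign in each of the 16 alternatives that tested them and those of 10 did not, where a minimum of 10 counts in every mouse left 5 of the 37 untested (C1rb, C1s2, C7, Cfb and Cfd). Without KO 27 and KO 29 the sign turned for C1qc (-0.0561), Cfb (0.0852), Cfd (0.88), C3ar1 (-0.61) and C5ar1 (-0.32). With limma-voom it turned for C1rb (-0.82) and C1s2 (-0.82), with total counts for C1s1 (-0.0836) and Masp2 (-0.13), and with upper-quartile scaling for C3 (0.0151). With 1 mouse left out the values ranged across 0 for C1rb (-0.0121 to 1.104), C1s1 (-0.0108 to 0.156), C1s2 (-0.513 to 0.685), Masp2 (-0.0378 to 0.108), C3 (-0.155 to 0.223), Cfb (-0.731 to 0.123), Cfd (-8.08 to 0.399), C3ar1 (-0.192 to 0.747) and C5ar1 (-0.0559 to 1.06). The causes were not tested.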
